A study of Mus musculus with 4 samples.

Results

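The genes for receptors of glutamate, GABA and glycine were compared between sorted *Prdm13* lineage cells of heterozygous and homozygous mutant mouse embryos. They were chosen by gene symbol and number 52 of the 24421 genes in the table, 26 for glutamate receptors and 26 for GABA and glycine receptors. Both genotypes carry *Prdm13* GFP, an allele with GFP inserted in the first exon that disrupts the protein, so the heterozygous control is not wild type. GFP+ cells were isolated from neural tubes at E11.5 by fluorescence activated cell sorting, and RNA of several embryos was combined into 1 pool per genotype, *Prdm13* GFP/+ (Het) or *Prdm13* GFP/GFP (Homo). There are 2 polyA libraries per genotype, which are technical replicates of these pools. Every SD and p-value below therefore describes library preparation and sequencing, and differences between embryos cannot be told apart from differences between genotypes.

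Glutamate opens the cation channels of AMPA, NMDA and kainate receptors and also acts on G protein-coupled metabotropic receptors. GABA and glycine open chloride channels, the pentameric GABA-A and glycine receptors, and GABA acts in addition on the G protein-coupled GABA-B receptor, an obligate pair of subunits. In embryonic neurons these receptors are expressed before mature synapses form, and the chloride channels can depolarize young neurons. In the dorsal neural tube the neurons that carry these receptors become excitatory, using glutamate, or inhibitory, using GABA and glycine.

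Recovered reads totalled 11831122 and 18818023 in the Het libraries and 16786473 and 14198921 in the Homo libraries. Replicate libraries differed by a median of 0.0783 (Het) and 0.0776 (Homo) on the log2 scale over the genes tested. *Prdm13*, the targeted gene, had 114 and 127 RPKM (reads relative to exon length and library size) in the Het libraries and 310 and 324 RPKM in the Homo libraries, a log2 fold change of 1.40 ± 0.06 (SE; limma adjusted p = 3.63e-05). The insertion leaves the rest of the gene in place, and the RPKM sums all exons, so this level does not check the genotype labels by a loss of transcript. All 10 dorsal inhibitory genes tested were called lower in Homo, among them *Pax2* (log2 fold change −2.62) and *Gad2* (−2.60), against 2.67% of all genes tested. All 7 dorsal excitatory genes were called higher, led by *Tlx3* (4.11) and *Lmx1b* (3.46), against 3.65%. The study reported *Pax2*, *Gad2*, *Tlx3* and *Lmx1b* in these directions from the same libraries, and the lists were chosen with this known. These lists are therefore no independent check of the genotype labels.

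A mean of at least 1 RPKM in either genotype was reached by 21 of the 52 receptor genes, 13 of the 26 glutamate receptor genes and 8 of the 26 GABA and glycine receptor genes. Differences were tested with limma over all 12046 genes of that level, and a gene was called at a Benjamini-Hochberg adjusted p under 0.05 with a fold of at least 1.5. Of the 21 receptor genes, 4 were called lower in Homo, against 2.67% of all genes tested, and 1 was called higher, against 3.65% (6.33% in either direction). All 5 were glutamate receptor genes: the AMPA receptor subunits *Gria1*, *Gria3* and *Gria4* and the kainate receptor subunit *Grik3* were lower, and the metabotropic receptor *Grm2* was higher. With no minimum fold, 9 of the 21 passed the adjusted p, against 19.7% of all genes tested. No GABA or glycine receptor gene was called by limma in this main fit. At an unadjusted p under 0.05 with no minimum fold there were 4 of 8, among them *Glrb*, *Glra2* and *Gabbr1*, beside 9 of the 13 glutamate receptor genes and 34.1% of all genes tested. With the fold of 1.5 as well, *Glra2* alone was left of the 4. Limma voom on recovered reads called 1, *Glra2*, against 6.75% of all genes in that fit. *Glra2* was also called by limma without a trend, with the filter on both libraries of a genotype, and with at least 20 reads in a library. The calls did not hold under each setting. With all 24421 genes in the fit no receptor gene was called and the calls over the whole table fell from 762 to 44, and the treat test against a fold of 1.5 called no receptor gene.

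**Figure D1:**
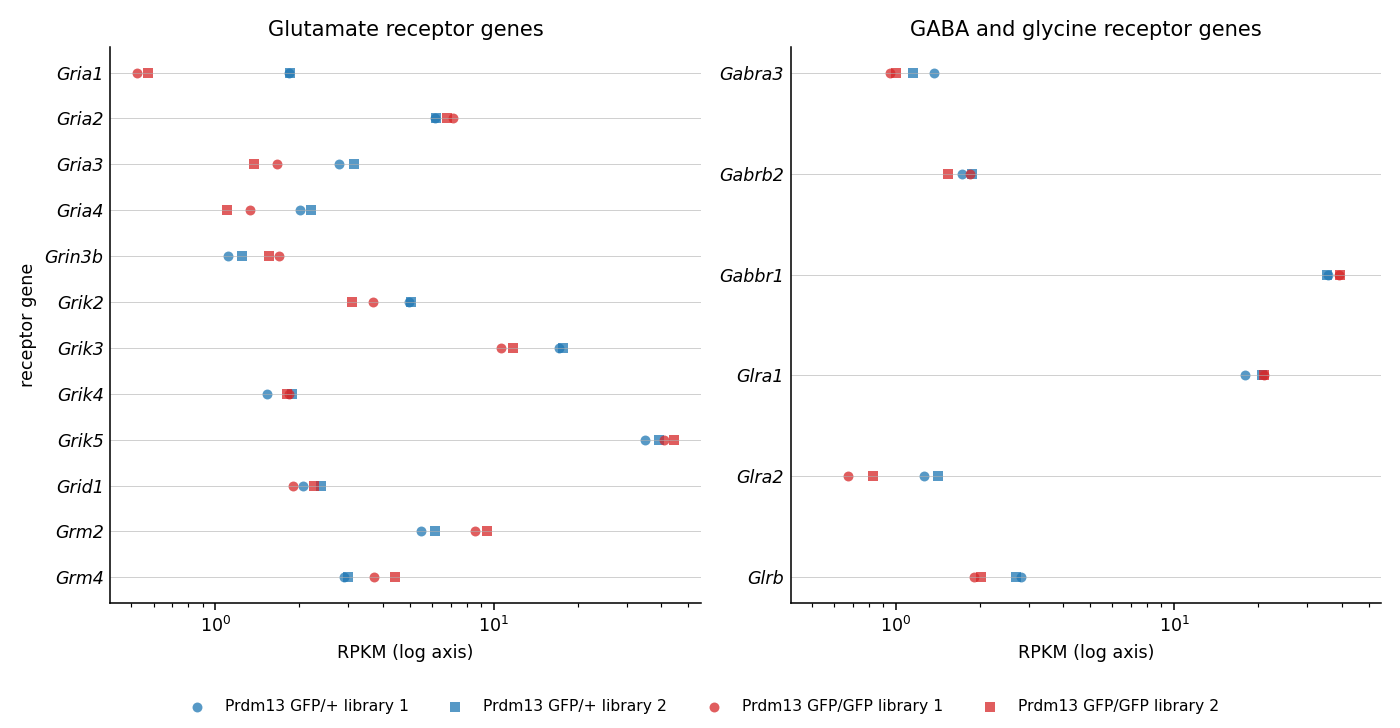
RPKM (log axis) of 18 of the 21 receptor genes tested, each row a gene and each point a library, with Het libraries in blue and Homo libraries in red and the replicate given by the marker. The Het and Homo points of *Gria1*, *Gria3*, *Gria4*, *Grik3* and *Grm2* stand apart, while those of *Gabrb2*, *Grid1* and *Grik4* are interleaved.

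**Figure D2:**
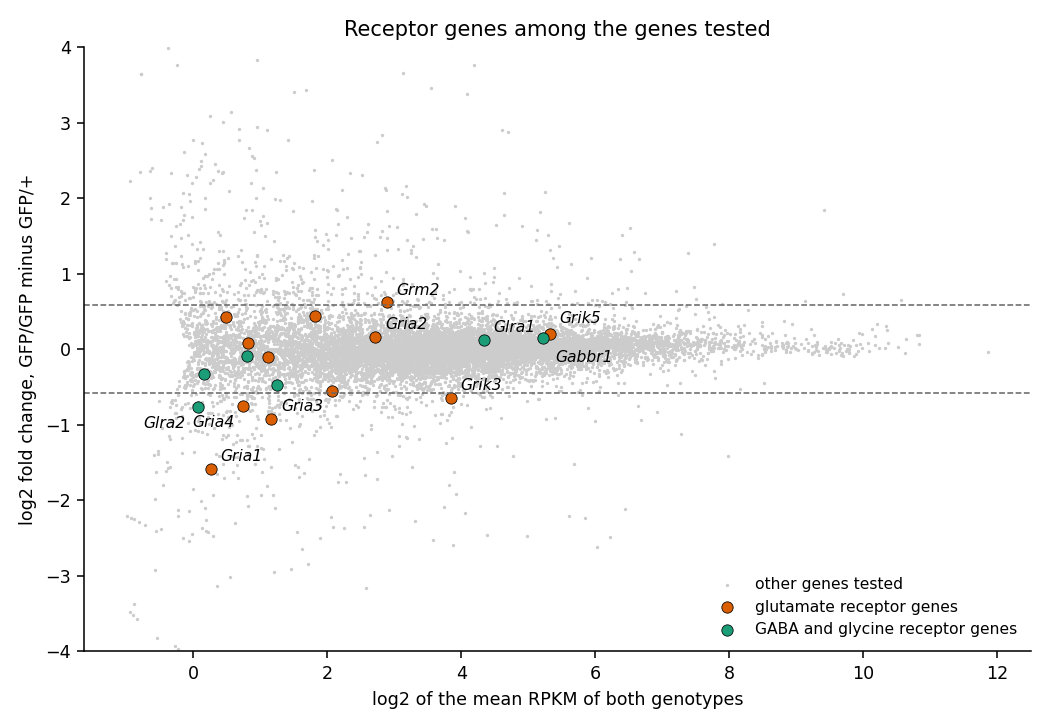
Log2 fold change of Homo minus Het against the log2 of the mean RPKM of both genotypes, each point a gene among the 12046 tested, with 18 receptor genes coloured; dashed lines mark a fold of 1.5, and 12 genes lie beyond the axis. *Gria1* lies at −1.58 and *Grm2* at 0.62, and the abundant *Grik5*, *Gabbr1* and *Glra1* lie between 0.13 and 0.20.

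On GRCm38.p6 the called genes lie at chr11:57011571-57330244 (*Gria1*), chrX:41400819-41678601 (*Gria3*), chr9:4417893-4796234 (*Gria4*), chr4:125490259-125714173 (*Grik3*) and chr9:106644534-106656109 (*Grm2*), and the RPKM of each sums its annotated exons. Of the promoter table of RefSeq (GRCm38.p6), windows were matched for 36 of the 52 receptor genes, and for 3 of the 5 called. *Gria1* and *Gria3* had no entry. The 250 bases before the transcription start are shown for the called genes *Gria4* (lower) and *Grm2* (higher), whose windows adjoin the annotated 5′ end of the gene, read 5′ to 3′ on the minus strand. Capitals mark the E-box CANNTG, the letters bound by basic helix-loop-helix factors, which reads the same on both strands. The *Gria4* window, chr9:4796235-4796484, holds 1 E-box that begins 68 bases before the start, and the *Grm2* window, chr9:106656110-106656359, holds none. Of all 32851 windows of this length in the table, 66.2% hold at least 1 E-box, and of the 43 windows of receptor genes 20 do (46.5%). The window of *Grik3* (lower), which lies inside the annotated gene and is not shown, holds 1 that begins 188 bases before its start. No window says anything of a factor.
Gria4: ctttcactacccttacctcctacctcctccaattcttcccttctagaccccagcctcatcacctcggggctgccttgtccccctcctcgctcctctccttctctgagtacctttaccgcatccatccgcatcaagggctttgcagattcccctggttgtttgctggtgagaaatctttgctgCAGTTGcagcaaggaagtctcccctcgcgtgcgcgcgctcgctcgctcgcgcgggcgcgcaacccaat
Grm2: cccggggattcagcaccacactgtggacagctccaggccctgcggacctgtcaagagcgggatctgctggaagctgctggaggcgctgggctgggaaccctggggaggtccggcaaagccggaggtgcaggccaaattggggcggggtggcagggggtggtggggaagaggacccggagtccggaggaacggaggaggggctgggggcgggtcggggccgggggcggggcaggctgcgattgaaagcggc

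AMPA receptors, which carry fast excitatory transmission, are tetramers of the products of *Gria1* to *Gria4*. *Gria1* had 1.84 and 1.85 RPKM in the Het libraries and 0.525 and 0.575 RPKM in the Homo libraries, from 127 and 203 reads against 51 and 47. Both Homo libraries lay far below both Het libraries. The log2 fold change was −1.58 ± 0.22 (SE; limma adjusted p = 0.00466), the largest among the 21 receptor genes tested, with a 95% interval of −2.10 to −1.06. It was called without each library in turn, with adjusted p from 0.0168 to 0.0199.

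*Gria3* had 2.78 and 3.15 RPKM in Het and 1.66 and 1.37 RPKM in Homo, again without overlap, a log2 fold change of −0.92 ± 0.15 (adjusted p = 0.00908). *Gria4* had 2.02 and 2.20 RPKM in Het and 1.33 and 1.11 RPKM in Homo, a log2 fold change of −0.75 ± 0.17 (adjusted p = 0.0269). Unlike that of *Gria1*, these calls did not hold without each library. *Gria3* missed the threshold without Het replicate 2 (adjusted p = 0.0507) and without Homo replicate 2 (0.0515), and *Gria4* missed it without any of the 4 libraries (0.0505 to 0.114). With a pseudocount of 1 the log2 fold change was −0.88 for *Gria1* and −0.65 for *Gria3*, both called, and −0.49 for *Gria4*, under the fold of 1.5.

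*Gria2*, whose edited subunit makes AMPA receptors impermeable to calcium, was the most abundant of the family. Its level was 6.17 and 6.20 RPKM in Het and 7.12 and 6.79 RPKM in Homo. Both Homo libraries were slightly above both Het libraries, but the log2 fold change of 0.17 ± 0.07 was not called (adjusted p = 0.150), and its 95% interval ran from −0.002 to 0.33, short of a fold of 1.5. Its share of the summed AMPA RPKM was 48.2% and 46.3% in Het and 66.9% and 69.0% in Homo. The share of *Gria1* was 14.3% and 13.8% in Het and 4.93% and 5.84% in Homo. The family sum was 12.8 and 13.4 RPKM in Het and 10.6 and 9.85 RPKM in Homo.

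Of the 16 auxiliary genes of AMPA and kainate receptors on the list, 10 were tested by limma. It called 2 lower, against 2.67% of all genes tested, and none higher, against 3.65%. The same shares apply to the limma counts of the other gene lists. The median log2 fold change of the auxiliary genes was −0.07 beside 0.01 for all genes tested. *Cacng3*, a transmembrane AMPA receptor regulatory protein, had 2.32 and 1.75 RPKM in Het and 0.363 and 0.240 RPKM in Homo, from 41 and 49 reads against 9 and 5 (log2 fold change −2.42 ± 0.30, adjusted p = 0.00340). It passed the RPKM filter only through Het, the genotype where it was higher. *Nptx1*, a neuronal pentraxin that clusters AMPA receptors, had 17.9 and 18.5 RPKM in Het and 9.36 and 9.49 RPKM in Homo (−0.94 ± 0.06, adjusted p = 0.000153). The abundant auxiliary subunits were not called. *Cacng7* had 56.8 and 66.0 RPKM in Het and 50.1 and 58.6 RPKM in Homo, with overlap. *Cnih2* (0.30 ± 0.08, adjusted p = 0.0482) and *Cacng4* (0.26 ± 0.07, adjusted p = 0.0383) passed the adjusted p in the higher direction, under the fold. *Cacng5*, a further regulatory protein of this family, was under the RPKM filter at 0.203 and 0.370 RPKM in Het and 1.01 and 0.820 RPKM in Homo, and limma voom on recovered reads of all genes with at least 20 reads in a library called it higher (1.64 ± 0.30, adjusted p = 0.000162). That fit called 4.18% of its genes higher. *Cnih3*, *Shisa6* and *Nptxr*, also under the RPKM filter, were in that fit and were not called.

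Kainate receptors combine low-affinity subunits, encoded by *Grik1* to *Grik3*, with the high-affinity subunits of *Grik4* and *Grik5*, which need such a partner to form a channel. *Grik3* had 17.1 and 17.8 RPKM in Het and 10.6 and 11.8 RPKM in Homo, without overlap, from 1422 to 2884 reads a library. Its log2 fold change was −0.64 ± 0.07 (adjusted p = 0.00182). Its fold was near the threshold of 1.5, and without Homo replicate 1 the log2 fold change of −0.57 fell short of it (adjusted p = 0.0161). *Grik2* had 4.95 and 5.04 RPKM in Het and 3.70 and 3.11 RPKM in Homo. Its log2 fold change of −0.55 ± 0.11 passed the adjusted p (0.0171) but not the fold, and it was called only without Homo replicate 1 among the fits that left out a library (−0.67, adjusted p = 0.0282).

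*Grik5* was the most abundant receptor gene of all 52 by its mean in each genotype, with 35.0 and 39.3 RPKM in Het and 40.9 and 44.3 RPKM in Homo. Both Homo libraries lay above both Het libraries, by a narrow gap between the nearest of them, and the log2 fold change of 0.20 ± 0.07 was not called (adjusted p = 0.108). *Grik4* had 1.54 and 1.89 RPKM in Het and 1.83 and 1.80 RPKM in Homo, with overlap (0.09 ± 0.16, adjusted p = 0.744). *Grik1* stayed below 0.340 RPKM in each library. *Grik5* made up 59.5% and 61.2% of the summed kainate RPKM in Het and 71.3% and 72.3% in Homo, and *Grik3* 29.1% and 27.7% in Het and 18.5% and 19.2% in Homo.

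**Figure D3:**
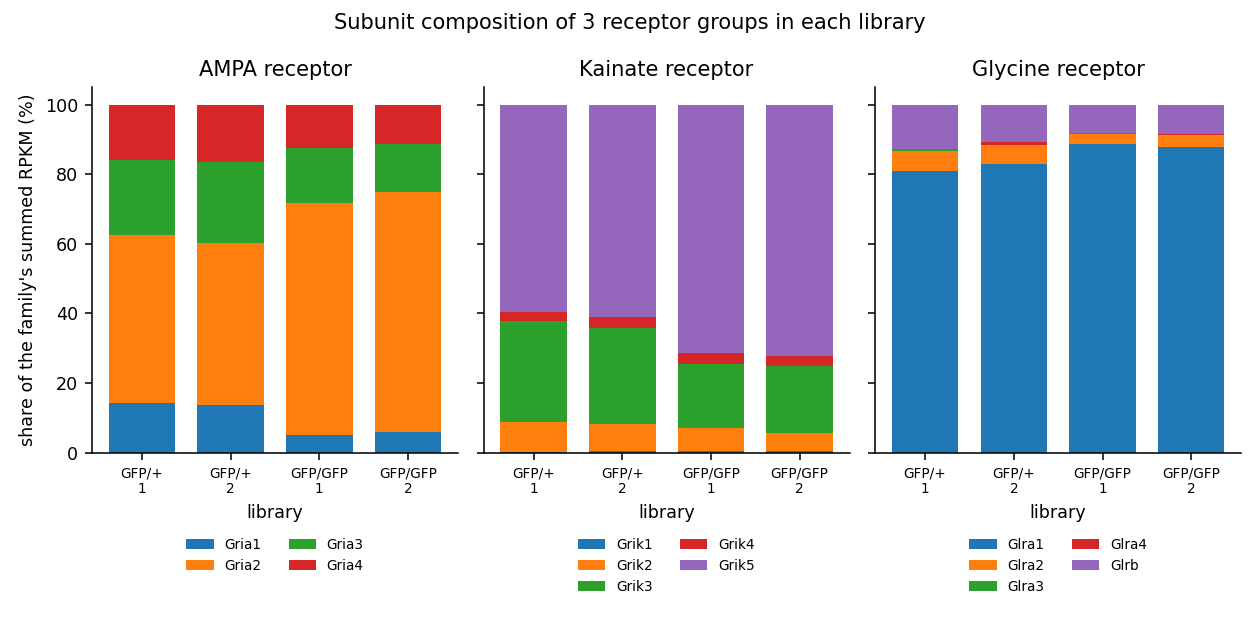
Share of each member in the summed RPKM of its group (%), each bar a library, for AMPA, kainate and glycine receptor subunits. *Gria2*, *Grik5* and *Glra1* take a larger share in both Homo libraries than in both Het libraries.

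Delta receptors are glutamate receptor relatives that bind cerebellins, secreted organizers of synapses. *Grid1* had 2.07 and 2.39 RPKM in Het and 1.90 and 2.26 RPKM in Homo. The genotypes overlapped, with a log2 fold change of −0.10 ± 0.15 (95% interval −0.46 to 0.27). *Cbln1* had 8.10 and 7.15 RPKM in Het and 25.0 and 26.5 RPKM in Homo (1.75 ± 0.08, adjusted p = 3.63e-05). *Cbln2* had 0.870 and 0.895 RPKM in Het and 3.10 and 3.11 RPKM in Homo (1.70 ± 0.15, adjusted p = 0.000751). It passed the RPKM filter only through Homo, the genotype where it was higher. Of the 4 cerebellin genes 3 were tested, 2 of them called higher, and *Cbln4* was not called (0.26 ± 0.22).

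NMDA receptors need the subunit encoded by *Grin1*, which stayed between 0.337 and 0.518 RPKM in the 4 libraries. Of the 7 NMDA genes *Grin3b*, a glycine-binding subunit, alone was tested. It had 1.11 and 1.25 RPKM in Het and 1.69 and 1.56 RPKM in Homo, without overlap, but a log2 fold change of 0.43 ± 0.18 (adjusted p = 0.143) was not called. Its exons overlap those of *Tmem259* on the opposite strand, and reads of these genes may not be told apart. The other 6 NMDA genes were at most 0.808 RPKM.

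Metabotropic receptors act through G proteins, and those of *Grm2* and *Grm4* lower cyclic AMP and often sit on presynaptic terminals. *Grm2* had 5.49 and 6.14 RPKM in Het and 8.53 and 9.46 RPKM in Homo. Both Homo libraries lay above both Het libraries, with a log2 fold change of 0.62 ± 0.09 (adjusted p = 0.00526). The fold was close to 1.5, and the call was lost without Het replicate 1 (0.54), without Homo replicate 2 (0.55) and with a pseudocount of 1 (0.55). An antisense transcript overlaps exons of *Grm2*. *Grm4* had 2.90 and 2.99 RPKM in Het and 3.72 and 4.41 RPKM in Homo (0.45 ± 0.11, adjusted p = 0.0389, under the fold). The 6 other metabotropic genes were at most 0.586 RPKM, and *Grm6* was at 0 reads in each library.

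**Figure D4:**
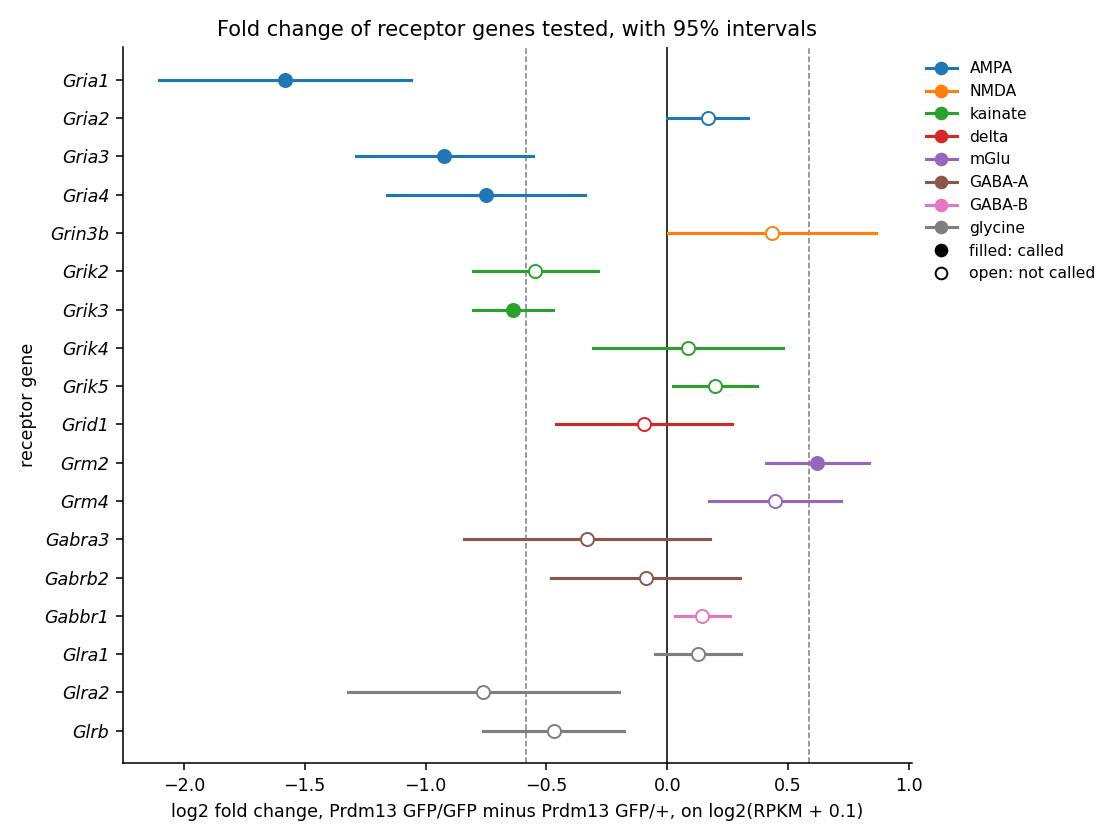
Log2 fold change of Homo minus Het on the log2(RPKM + 0.1) scale for 18 of the 21 receptor genes tested, with 95% intervals from limma, coloured by family; filled points were called and dashed lines mark a fold of 1.5. Of the genes plotted, the intervals of *Gria1*, *Gria3*, *Gria4*, *Grik2*, *Grik3*, *Glra2* and *Glrb* lie wholly below 0 and those of *Grm2*, *Grm4*, *Grik5*, *Gabbr1* and *Grin3b* wholly above 0. That of *Gria1*, from −2.10 to −1.06, also lies wholly beyond the line.

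GABA-A receptors are pentamers, most often of alpha, beta and gamma subunits, and 4 of their 19 genes were tested. The beta subunit gene *Gabrb2* had 1.73 and 1.87 RPKM in Het and 1.84 and 1.54 RPKM in Homo. The genotypes overlapped and the 95% interval, −0.48 to 0.30, held no fold of 1.5. *Gabra3*, the most abundant alpha subunit gene, had 1.37 and 1.16 RPKM in Het and 0.957 and 1.00 RPKM in Homo (−0.33 ± 0.21, adjusted p = 0.321).

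GABA-B receptors need both of their subunits, *Gabbr1* to bind GABA and *Gabbr2* to reach the G protein. *Gabbr1* had 35.7 and 35.3 RPKM in Het and 39.0 and 39.5 RPKM in Homo, a log2 fold change of 0.15 ± 0.05 (adjusted p = 0.0777). *Gabbr2* stayed between 0.567 and 0.692 RPKM, so *Gabbr1* made up 98.1% to 98.6% of the summed RPKM of the pair in each library.

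Glycine receptors combine alpha subunits with the beta subunit of *Glrb*, which binds the scaffold gephyrin. *Glra1* had 18.0 and 20.6 RPKM in Het and 21.1 and 21.1 RPKM in Homo (0.13 ± 0.07, adjusted p = 0.281), and an antisense transcript overlaps its exons. *Glra2*, the alpha subunit known for embryonic receptors, had 1.26 and 1.42 RPKM in Het and 0.674 and 0.828 RPKM in Homo, from 40 and 71 reads against 30 and 31. The genotypes did not overlap. Its log2 fold change of −0.76 ± 0.23 missed the adjusted p (0.0672), and the same gene was called by voom on recovered reads (−0.86, adjusted p = 0.00747) and with the filter set on both libraries of a genotype (adjusted p = 0.0478). *Glrb* had 2.82 and 2.70 RPKM in Het and 1.91 and 2.03 RPKM in Homo (−0.47 ± 0.12, adjusted p = 0.0407, under the fold). Across the alternatives the adjusted p of *Glra2* ran from 0.00747 to 1.

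Among the supporting genes of inhibitory synapses, 11 of 13 scaffold genes were tested, 1 was called lower and none higher (median 0.06). *Slitrk3*, an adhesion protein of inhibitory synapses, had 1.53 and 1.29 RPKM in Het and 0.610 and 0.627 RPKM in Homo (−1.06 ± 0.24, adjusted p = 0.0255). It passed the RPKM filter only through Het, the genotype where it was higher. *Gphn*, which encodes gephyrin, had 14.0 and 13.1 RPKM in Het and 11.3 and 9.85 RPKM in Homo (−0.35 ± 0.08, adjusted p = 0.0290, under the fold). *Gabarapl1* and *Gabarap*, of the family of GABA-A receptor-associated proteins, also passed the adjusted p under the fold, in the other direction, at 0.34 ± 0.05 (adjusted p = 0.00540) and 0.24 ± 0.04 (0.0123). The chloride transporters set whether these receptors depolarize or hyperpolarize. Neither of the 2 was called by limma (median −0.37). *Slc12a5*, the exporter, had 3.44 and 4.01 RPKM in Het and 2.47 and 2.42 RPKM in Homo, at −0.58 ± 0.12 (adjusted p = 0.0175), just under the fold, and voom on all genes with at least 20 reads called it lower (−0.62 ± 0.10, adjusted p = 3.63e-05). None of 15 excitatory scaffold genes tested by limma, of 18 listed, was called in either direction (median 0.03). Under the fold, *Shank2* (−0.55 ± 0.11, adjusted p = 0.0153), *Grip1* (−0.31 ± 0.07, 0.0251) and *Homer1* (−0.30 ± 0.08, 0.0389) passed the adjusted p in the lower direction and *Dlgap3* (0.38 ± 0.10, 0.0429) in the higher. *Dlg2*, a scaffold gene under the RPKM filter, had 0.700 and 1.03 RPKM in Het and 0.383 and 0.456 RPKM in Homo and was called lower by that voom fit (−1.08 ± 0.21, adjusted p = 0.000234). That fit called 3.46% of its genes lower, and it did not call *Dlgap1* and *Dlgap2*, also under the filter.

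The remaining 31 receptor genes were under 1 RPKM in mean in both genotypes, 13 for glutamate and 18 for GABA and glycine, with no library above 0.856 RPKM. They could not enter the main test. In limma voom on the recovered reads of all genes with at least 20 reads in a library, chosen after their values had been seen, 12 of the 31 had enough reads. This fit called 7.64% of 12881 genes (4.18% higher and 3.46% lower), and 3 of these 12. *Grin2b*, the NMDA subunit prominent in embryos, had 0.207 and 0.160 RPKM in Het and 0.0410 and 0.0390 RPKM in Homo, from 54 and 66 reads against 15 and 12 (log2 fold change −2.10 ± 0.30, adjusted p = 5.14e-06). Transcripts on the opposite strand overlap its exons, and their reads may not be told apart. *Grm3* had 0.538 and 0.586 RPKM in Het and 0.296 and 0.290 RPKM in Homo (−0.93 ± 0.31, adjusted p = 0.0253). *Gabra2*, an alpha subunit of GABA-A receptors, had 0.325 and 0.274 RPKM in Het and 0.823 and 0.856 RPKM in Homo, from 18 and 24 reads against 64 and 56 (1.49 ± 0.26, adjusted p = 6.67e-05), and it was the only GABA or glycine receptor gene called higher in that fit. The 9 not called were *Grin1*, *Grin2c*, *Grin2d*, *Grin3a*, *Gabrg1*, *Gabre*, *Gabrq*, *Gabrr2* and *Gabbr2*. The other 19 were too low for any comparison; of the 52 receptor genes, 15 never exceeded 10 reads, and *Grm6* and *Gabrg3* had none, where 0 reads allows up to 3 reads by counting error alone.

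Set against each other, the excitatory and inhibitory receptors differed little as sums. The summed RPKM of the 26 glutamate receptor genes was 87.8 and 95.3 in Het and 88.5 and 93.3 in Homo, a log2 ratio of −0.01. That of the 26 GABA and glycine receptor genes was 74.6 and 76.8 in Het and 78.6 and 78.7 in Homo, a log2 ratio of 0.06. The glutamate sum joins families that went both ways. Their log2 ratios were −0.36 (AMPA), −0.05 (kainate), 0.50 (metabotropic), 0.16 (NMDA) and 0.03 (delta). The metabotropic sum was 9.27 and 9.94 RPKM in Het and 12.8 and 14.4 RPKM in Homo. The ratio of the glutamate sum to the GABA and glycine sum was 1.18 and 1.24 in Het and 1.13 and 1.19 in Homo, so the genotypes overlapped. The ratio of the glutamate sum without metabotropic receptors to the GABA-A and glycine sum was 2.06 and 2.08 in Het and 1.94 and 2.04 in Homo, lower in both Homo libraries by a narrow gap. No test was run on these sums and ratios, and with 2 libraries a genotype the smallest p of an exact permutation test is 0.333. Single genes weigh heavily on them: *Grik5* made up 39.9% to 47.5% of the glutamate sum and *Gabbr1* 45.9% to 50.2% of the other. Without *Grik5* the log2 ratio of the glutamate sum was −0.17, and without *Gabbr1* that of the GABA and glycine sum was −0.03.

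Gene by gene, the median log2 fold change was 0.09 over the 13 glutamate receptor genes tested and −0.21 over the 8 GABA and glycine receptor genes, beside 0.01 over all genes tested. The glutamate median has 7 genes above 0 and 6 below, while 6 of the 8 GABA and glycine receptor genes were below 0, against 47.6% of all genes tested. These counts depend on the filter. *Glra2* and *Gabra3*, both below 0, reached a mean of 1 RPKM only in Het, as did *Gria1* among the glutamate receptor genes. GABA and glycine receptor genes under the filter went both ways, *Gabra2* higher and *Gabbr2* lower among them, and were not counted. Libraries of the genotypes did not overlap for 16 of the 21 receptor genes, against 62.1% of all genes tested, with 7 higher in Homo (31.7% of all genes) and 9 lower (30.3%). Without Het replicate 1 the glutamate median was −0.055. The GABA and glycine median was −0.13 with a pseudocount of 1 and −0.089 with no filter. The difference between these medians was not tested.

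Markers of cell classes moved between the pools as well. In bulk RNA fewer cells of a type and less RNA per cell cannot be told apart. Of 13 pan-neuronal genes tested, 4 were called higher (*Nefl*, *Nefm*, *Gap43* and *Stmn2*) and 1 lower (*Snap25*), with a median of 0.17, a sum of 2005 and 2065 RPKM in Het and 2543 and 2656 RPKM in Homo, and *Tubb3* as the most abundant gene. Of 14 progenitor genes tested, 1 was called lower (*Sox1*), with a median of 0.02 and *Vim* as the most abundant gene. Their sum was 2592 and 2611 RPKM in Het and 2593 and 2692 RPKM in Homo. The median joins genes that went both ways. Under the fold, *Sox2* (−0.48, limma adjusted p = 0.00214), *Pax7* and *Hes1* passed the adjusted p in the lower direction. *Sox3* (0.54, limma adjusted p = 0.00556), *Hes5*, *Notch1*, *Pax6* and *Prom1* passed it in the higher. Of all genes tested 19.7% passed it. Of 7 dorsal root ganglion genes 3 were tested and called higher (among them *Prrxl1* and *Sncg*), with a sum of 15.4 and 15.6 RPKM in Het and 49.8 and 50.6 RPKM in Homo, mostly *Sncg*; *Prrxl1* is also on the dorsal excitatory list. Their part in the receptor results was not tested. The dorsal inhibitory sum was 607 and 647 RPKM in Het and 132 and 137 RPKM in Homo, led by *Lhx5*, and the dorsal excitatory sum 30.4 and 33.3 RPKM in Het and 195 and 201 RPKM in Homo, led by *Pou4f1* in Het and *Tlx3* in Homo; their part was not tested either.

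Markers of other tissues were also read. Of 5 neural crest and glia genes 2 were tested and *Foxd3* was called lower (sum 12.2 and 15.2 RPKM in Het, 6.93 and 7.30 RPKM in Homo), while *Sox10* stayed at or below 0.781 RPKM. Of 9 erythroid genes 3 were tested and none called, the sum was 47.2 and 47.9 RPKM in Het and 49.7 and 48.6 RPKM in Homo, *Hbb-y* led, and the adult globins *Hba-a1*, *Hba-a2*, *Hbb-bs* and *Hbb-bt* were listed at 0. Of 6 endothelial genes 1 was tested and not called (sums 2.25 to 3.26 RPKM, led in mean by *Cldn5*). Of 8 mesenchymal genes 2 were tested and *Pdgfrb* was called higher, with sums of 6.18 and 6.77 RPKM in Het and 6.66 and 6.54 RPKM in Homo. *Pdgfra*, under the RPKM filter at 0.834 and 0.656 RPKM in Het and 0.420 and 0.380 RPKM in Homo, was called lower by voom on all genes with at least 20 reads (−0.84 ± 0.21, adjusted p = 0.00417). *Col1a1* and *Col3a1*, also under the filter, were in that fit and were not called. Their part in the receptor results was not tested.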

How the data were processed

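RNA-seq of 4 libraries of GFP+ cells from E11.5 neural tubes was used. Per the submitters' processing notes and the study's methods, the authors processed base calls with CASAVA, aligned reads to mm10 with TopHat2 2.1.0, counted reads over RefSeq exons with featureCounts, applied TMM normalization with edgeR 3.6.8 and deposited RPKM values. Whether the counting used strand is not given in the sources used here. The deposited RPKM values were not rescaled. The test was limma 3.58.1 in R 4.3.3 (lmFit, eBayes with a trend, two-sided, Benjamini-Hochberg) on log2(RPKM + 0.1). It ran over genes whose mean RPKM reached 1 in Het or Homo, and a call needed both an adjusted p below 0.05 and a 1.5-fold difference. The log2 scale with its pseudocount understates the fold of low genes.

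Whole reads were solved from the RPKM steps (98.51% of 19200 genes above 0, with each value within 0.02 of a whole read). The RPKM of other very high genes, *Prdm13* among them, were turned into reads at the annotated exon length. Read solving and the limma fit were tested on simulated data, and the reads set at the annotated length were not. In that test the share of unchanged genes among the calls was above the nominal rate, and nearly all of them had fewer than 20 reads in every library. Each called receptor gene had at least 47 reads in each library.

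The receptor genes were taken by symbol, and these genes and all lists were chosen with earlier results of these data known. The genes named were *Prdm13*, each receptor gene called or with a mean RPKM of at least 1, the most abundant of each family (with the exceptions below), and at most 4 called genes of each list with the largest fold changes. Other genes named, among them those under the RPKM filter, were picked with their values in view. Results of some of these genes are not reported here and not plotted, though the genes stay in the counts, medians and sums. The lists were AMPA and kainate auxiliary genes, excitatory and inhibitory scaffolds, chloride transporters, delta receptor ligands, dorsal excitatory and dorsal inhibitory genes, and markers of neurons, progenitors, dorsal root ganglion, neural crest and glia, blood, endothelium and mesenchyme. Coordinates and promoters are from RefSeq on GRCm38.p6, and exon overlaps from GENCODE. Alternatives were other pseudocounts, filters, scalings and tests, a replicate block, leaving out each library, and limma voom on recovered reads. Voom on all genes with 20 reads was added after seeing the data. Software was Python 3.11.15 with pandas 2.3.3, numpy 2.4.6, matplotlib 3.10.9 and scipy 1.17.1.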

Additional observations from a re-analysis of the deposited data

How the results depend on the processing

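Of all genes tested, 762 were called, 44 with no filter on RPKM, 208 by the treat test, 2375 with no minimum fold and 538 to 762 without single libraries. The count of 5 glutamate receptor genes became 3 with a pseudocount of 1, 0 with no filter, 0 by the treat test, 2 to 4 without single libraries, and 7 with no minimum fold and by voom on all genes with 20 reads. The count of 0 GABA and glycine receptor genes became 1 (*Glra2*) with the filter on both libraries, without a trend, with unadjusted p and the fold of 1.5, by voom and with at least 20 reads, and 2 with no minimum fold (*Glrb* among them) and by voom on all genes with 20 reads (*Glra2* and *Gabra2*). The median of glutamate receptor genes ran from −0.055 to 0.17 without single libraries, and turned sign without Het replicate 1. That of GABA and glycine receptor genes was −0.13 with a pseudocount of 1, −0.089 with no filter and −0.26 to −0.18 without single libraries. The log2 ratios of the sums were −0.17 without *Grik5* and −0.029 without *Gabbr1*. Uncalled genes near 0 turned sign without single libraries: *Grik4* (−0.055 to 0.23, below 0 without Het replicate 1), *Grid1* (−0.21 to 0.024, above 0 without Het replicate 2, at 0.0046, and Homo replicate 1) and *Gabrb2* (−0.21 to 0.032, above 0 without Homo replicate 2). The causes were not tested.

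With the replicate number as a block, 801 genes were called over the table, and the same 5 glutamate and 0 GABA and glycine receptor genes. Deviations of libraries with the same number correlated at 0.0475, so they shared little over the genes tested. Whether same-numbered libraries were prepared or run together is not given by the labels, and this correlation cannot settle it. Where 1 library was left out, the lone library of its genotype was assumed to vary like the others.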
